A study of Mus musculus with 8 samples.

Results

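The genes described here belong to families known for proteins that copy DNA or mend it, measured as RNA in pools of 2-cell mouse embryos. Members were taken by symbol: the minichromosome maintenance (Mcm), origin recognition complex (Orc), DNA polymerase delta (Pold) and DNA polymerase epsilon (Pole) families as replication genes, and the Rad, Xrcc, Ercc, Fanc, Msh, Mlh and Brca families as repair genes. Each was read from the 1 array probeset that carried its symbol alone. This gave 45 of 14995 genes, 18 in the replication subgroup and 27 in the repair subgroup. Some members, such as Ercc6l, Rad21 and Fancd2os, carry a repair prefix without such a role being their main one, and they stay in all counts. Of these, 41 had a mean above the level used to leave out dim probesets (log2 2.07, the 30th percentile of all probesets) and were tested, 17 for replication and 24 for repair. The 4 under that level were Pole2, with a mean of 1.98 just outside it, Fancc (1.93), Mlh3 (1.76) and Rad21l (1.64), while Pole (2.33), Msh5 (2.40) and Mcm8 (2.42) lay just inside. Rad54l, whose probeset is shared with Lrrc41, was not analysed here.

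The 8 arrays each held RNA of 1 pool, of 26 embryos on average. All mothers were C57BL/6 females given 5 IU of eCG and hCG, and 2-cell embryos were washed out of the oviducts 46 to 48 hours after hCG. The fathers were C57BL/6 males (3 arrays), males carrying a KDM1A transgene (KDM1A TG, 3 arrays) or their littermates without it (nonTG, 2 arrays). Sample titles write TG3 and nonTG3 for the last pair of groups, and what the number stands for is not stated. KDM1A is a histone demethylase that acts on lysine residues of histone H3. The sources used here do not give the promoter of the transgene, the age or number of the males or the genotype of the embryos. They also leave unsaid whether replicate pools had different fathers, so the p-values reflect spread between pools that may be technical. Kdm1a itself was not analysed here, so the arrays give no check of the labels.

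Before a cell divides, the origin recognition complex marks the sites where copying starts. The ring-shaped MCM helicase is loaded there and later unwinds the strands for polymerases epsilon and delta. Repair proteins work in pathways: nucleotide excision repair cuts out bulky lesions, mismatch repair corrects copying errors, and double-strand breaks are closed by end joining or by homologous recombination, while the Fanconi anemia proteins clear cross-links between strands. An early mouse embryo starts with RNA and protein stored in the egg and copies both parental genomes while its own genes are being switched on. Array values do not separate stored from new transcripts.

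The 8 arrays correlated with each other at 0.889 to 0.967, and KDM1A TG replicates 1 and 3 had the widest spread of values, with interquartile ranges of 2.38 and 2.60 against 1.87 to 2.09 in the other arrays. Of the oocyte and 2-cell embryo markers found, 18 of 21 lay above the filter level, with Dppa3 between 7.83 and 10.18. Markers of other cells that flushing could bring along also lay above it: 20 of 20 found for oviduct epithelium, 18 of 18 for stroma and smooth muscle, 8 of 8 for blood, 8 of 8 for cumulus and 4 of 6 for sperm. Of all 14995 genes, 11444 lay above this level, so these counts alone do not show that such cells were present. Only 8 of 17 listed blood markers, 8 of 16 cumulus markers and 6 of 16 sperm markers were found. Several had means near the filter level, such as Amh (2.18), Has2 (2.23) and Ldhc (2.27). The highest of the cumulus and sperm lists were Nr5a2 (4.79) and Spata18 (5.70). Nr5a2 was lowest in nonTG replicate 1 (4.09) and Spata18 in KDM1A TG replicate 2 (4.98). Which cells this RNA came from was not tested, so neither level shows cumulus cells or sperm. The mean level of the oviduct list ran from 4.66 to 5.29 in C57BL/6, 5.10 to 5.81 in KDM1A TG and 5.26 to 5.59 in nonTG arrays. That of the oocyte and 2-cell list ran from 3.80 to 4.53, 3.97 to 4.48 and 3.51 to 4.0. In pooled RNA, fewer embryo cells and less RNA per cell cannot be told apart.

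None of the 41 tested members passed limma's test at a Benjamini-Hochberg adjusted p of 0.05 in any of the 3 comparisons. Among all 11444 genes tested, 0.725% passed when KDM1A TG was set against C57BL/6, 0.131% when nonTG was, and 0.0437% between KDM1A TG and nonTG, so a count of 0 among 41 is near the background. The same test gave 2, 4 and 4 members at an unadjusted p under 0.05. The member nearest the threshold was Xrcc4, at 2.25-fold in KDM1A TG over C57BL/6 embryos (limma adjusted p = 0.0543). The 3 comparisons share arrays, so their values are given side by side and not as separate support.

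**Figure D1:**
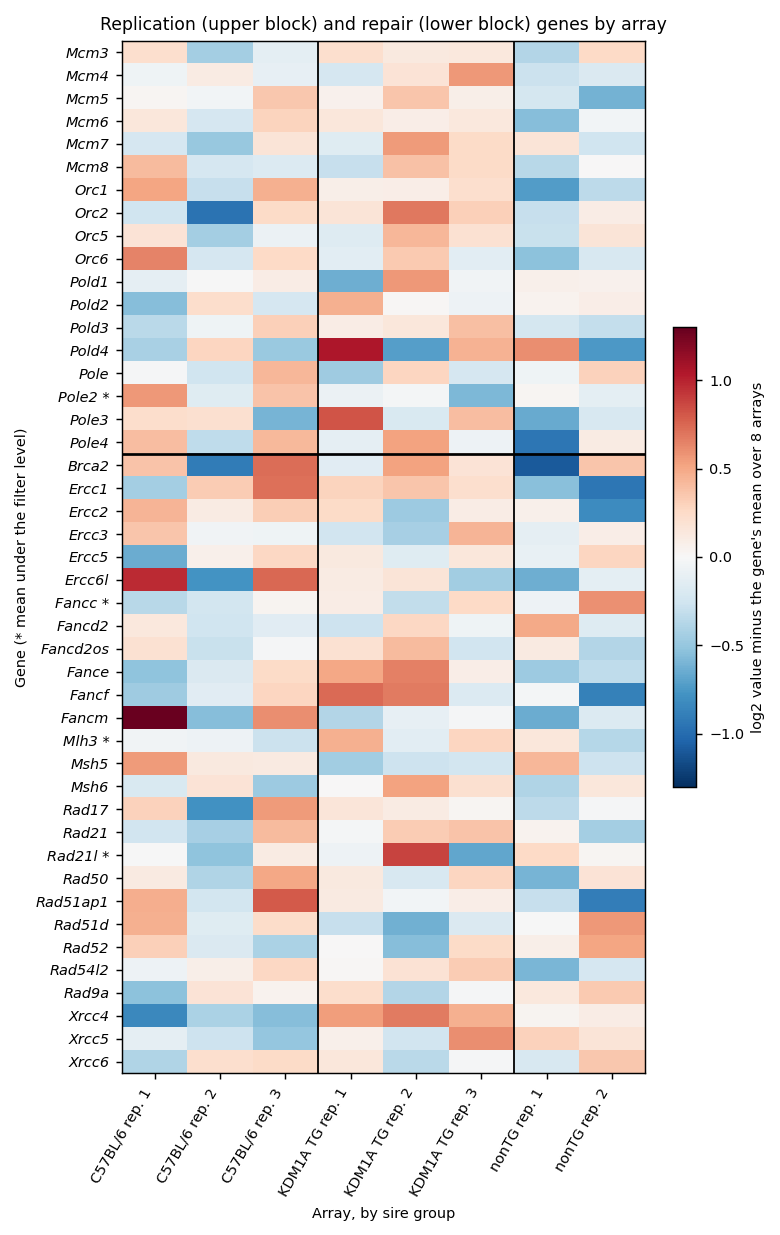
Each row is 1 of the 45 genes and each column 1 of the 8 arrays, and colour is the log2 value minus that gene's mean over the 8 arrays. Replication genes are in the upper block, repair genes in the lower, and an asterisk marks the 4 genes under the filter level. Xrcc4 is low in all 3 C57BL/6 arrays and high in all 3 KDM1A TG arrays, and nonTG replicate 1 is the lowest array for 11 of the 41 tested genes.

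Some single arrays were the lowest or highest for members more often, or less often, than for all genes. Spread within groups was not set against spread between groups. nonTG replicate 1 was the lowest of the 8 arrays for 11 of 41 members (26.8%) and for 7 of 17 replication genes, against 12.7% of all genes tested. For nonTG replicate 2 this was 8 of 41 members (19.5%), against 17.5% of all genes. C57BL/6 replicate 2 was the highest array for 0 of 41 members, against 8.22% of all genes. KDM1A TG replicate 2 was the highest for 10 members, 6 of them replication genes, against 9.17% of all genes.

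The mean log2 level of the 17 replication genes, set against the mean of all genes tested on the same array, was 0.29, 0.03 and 0.31 in C57BL/6, 0.11, 0.40 and 0.14 in KDM1A TG and -0.08 and 0.11 in nonTG arrays. The same relative level of the 24 repair genes was 0.10, -0.19 and 0.24 in C57BL/6, -0.08, 0.01 and -0.14 in KDM1A TG and -0.20 and -0.10 in nonTG arrays. The groups overlapped for both subgroups, and C57BL/6 replicates 1 and 3 and KDM1A TG replicate 2 were the 3 highest arrays for each. The oocyte and 2-cell markers were at 0.85, 0.09 and 0.63 in C57BL/6, 0.09, 0.72 and 0.06 in KDM1A TG and -0.24 and 0.28 in nonTG arrays on this scale, with the same 3 arrays highest and nonTG replicate 1 lowest, as it was for both subgroups. Oviduct markers were at 1.32, 1.57 and 0.97 in C57BL/6, 1.79, 1.34 and 1.85 in KDM1A TG and 1.85 and 1.54 in nonTG arrays, lowest in those 3 arrays. A fit with mean oviduct marker level as a covariate is given beside only some of the results it moves. The part of embryo RNA content in the members' values was not tested.

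**Figure D2:**
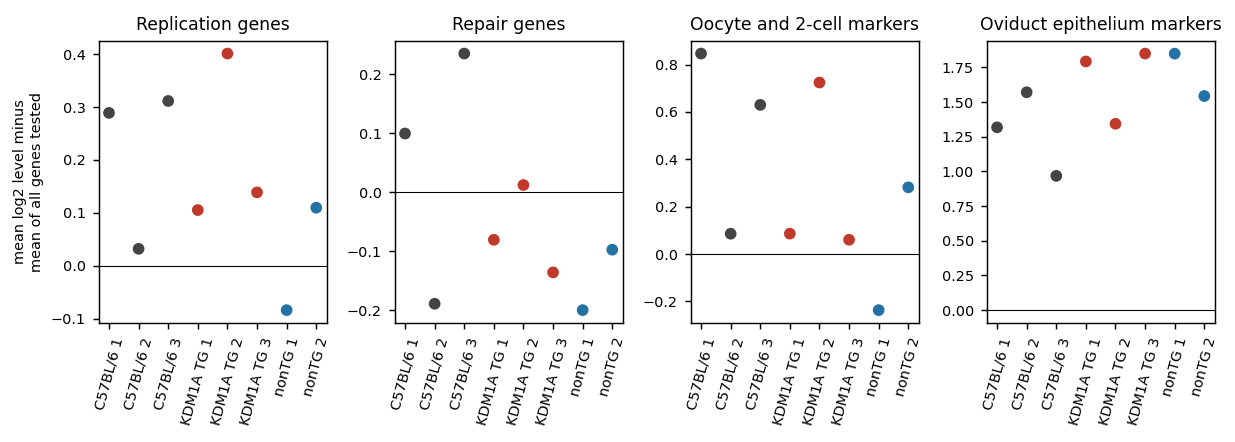
Mean log2 level of 4 gene sets on each array minus the mean of all 11444 genes tested on that array, with 1 point per array by sire group and a separate vertical scale per panel. C57BL/6 replicates 1 and 3 and KDM1A TG replicate 2 are the highest points for replication genes, repair genes and oocyte and 2-cell markers and the lowest for oviduct markers.

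The replication mean minus the repair mean was 0.19, 0.22 and 0.08 in C57BL/6, 0.19, 0.39 and 0.27 in KDM1A TG and 0.12 and 0.21 in nonTG arrays. Its size depends on the probesets, and only its differences between arrays can be read. The 3 sire groups overlapped, so the balance of the subgroups did not separate them. The median within-group SD of a gene was 0.34 for replication genes, 0.34 for repair genes and 0.36 for all genes tested.

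KDM1A TG against C57BL/6 embryos asks what sets offspring of transgenic males apart from those of the control strain. The median log2 difference was 0.19 over replication genes and 0.07 over repair genes, against 0.18 over all genes tested. Of the 41 members, 26 (63.4%) had a difference above 0, against 64.9% of all genes. At an unadjusted p under 0.05, Xrcc4 and Orc2 stood higher and 0 members lower, which is 4.88% and 0%, against 12.1% and 2.10% of all genes. Array values were fully apart for 1 member on the higher side (Xrcc4) and 2 on the lower (Msh5 and Rad51d), or 2.44% and 4.88%, against 14.5% and 5.34% of all genes. These shares were at or below the background. In the same comparison 18 of 20 oviduct markers lay above 0, with a median of 0.58, and 18 of 18 stroma and smooth muscle markers, with a median of 0.98. Of the oocyte and 2-cell markers 8 of 18 did, with a median of -0.21. The unadjusted count was 1 without C57BL/6 replicate 1, 4 without C57BL/6 replicate 2 and 3 without C57BL/6 replicate 3. It was 4 with the oviduct covariate and 10 with array weights, a setting under which 1694 of the 11444 genes passed after adjustment. After quantile normalization 10 of 24 repair genes had a difference above 0, in place of 14, while the all-gene median was 0.09.

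nonTG against C57BL/6 embryos asks the same of littermates that lacked the transgene. The median log2 difference was -0.18 over replication genes and -0.15 over repair genes, against 0.04 over all genes tested. Relative to all genes these medians were -0.22 and -0.18. The replication value was -0.0043 without C57BL/6 replicate 1, and with the oviduct covariate the values were -0.0104 and 0.0896, so the shift does not hold under every setting. A difference above 0 was seen for 17 of 41 members (41.5%), against 53.2% of all genes. The arrays did not overlap for 7 members on the lower side, namely Ercc1, Ercc2, Mcm4, Mcm5, Orc1, Rad51ap1 and Rad54l2, which is 17.1% against 9.41% of all genes. On the higher side they did not overlap for 2 (Xrcc4 and Xrcc5), or 4.88% against 15.4%. At an unadjusted p under 0.05, Ercc1, Rad51ap1, Fancm and Orc1 stood lower, or 9.76% against 3.62%, and 0 members higher against 4.61%. That count was 2, 8 and 0 without C57BL/6 replicates 1, 2 and 3 in turn. Of the oocyte and 2-cell markers 16 of 18 lay below 0 in the same arrays, with a median of -0.62. Of the oviduct markers 17 of 20 lay above 0, with a median of 0.51, and of the stroma and smooth muscle markers 15 of 18, with a median of 0.59.

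KDM1A TG against nonTG embryos asks what goes with the transgene among littermate fathers. The median log2 difference was 0.39 over replication genes and 0.28 over repair genes, against 0.16 over all genes tested. Of the members 30 of 41 (73.2%) had a difference above 0, among them 15 of 17 replication genes, against 65.4% of all genes. The arrays did not overlap on the higher side for 13 members (31.7%), against 16.0% of all genes. These were 7 replication genes (Mcm5, Mcm6, Orc1, Orc2, Orc6, Pold3 and Pole3) and 6 repair genes (Ercc1, Fance, Rad17, Rad51ap1, Rad54l2 and Xrcc4). On the lower side there was 1 member, Rad51d, against 6.38%. At an unadjusted p under 0.05, Ercc1, Fancf, Fance and Pole3 stood higher (9.76%) and 0 lower, against 4.97% and 1.43% of all genes. That count was 1 without KDM1A TG replicate 1, and 2 when KDM1A TG replicate 2 was left out, and it was 8 with the oviduct covariate, where the lowest adjusted p of a member in limma was 0.261. Without nonTG replicate 1, the replication median relative to all genes was 0.06 in place of 0.24, and the repair median -0.08 in place of 0.12. Of the oocyte and 2-cell markers 16 of 18 lay above 0 in this comparison, with a median of 0.53. So did 15 of 18 stroma and smooth muscle markers, with a median of 0.30, and 11 of 20 oviduct markers, with a median of 0.12.

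**Figure D3:**
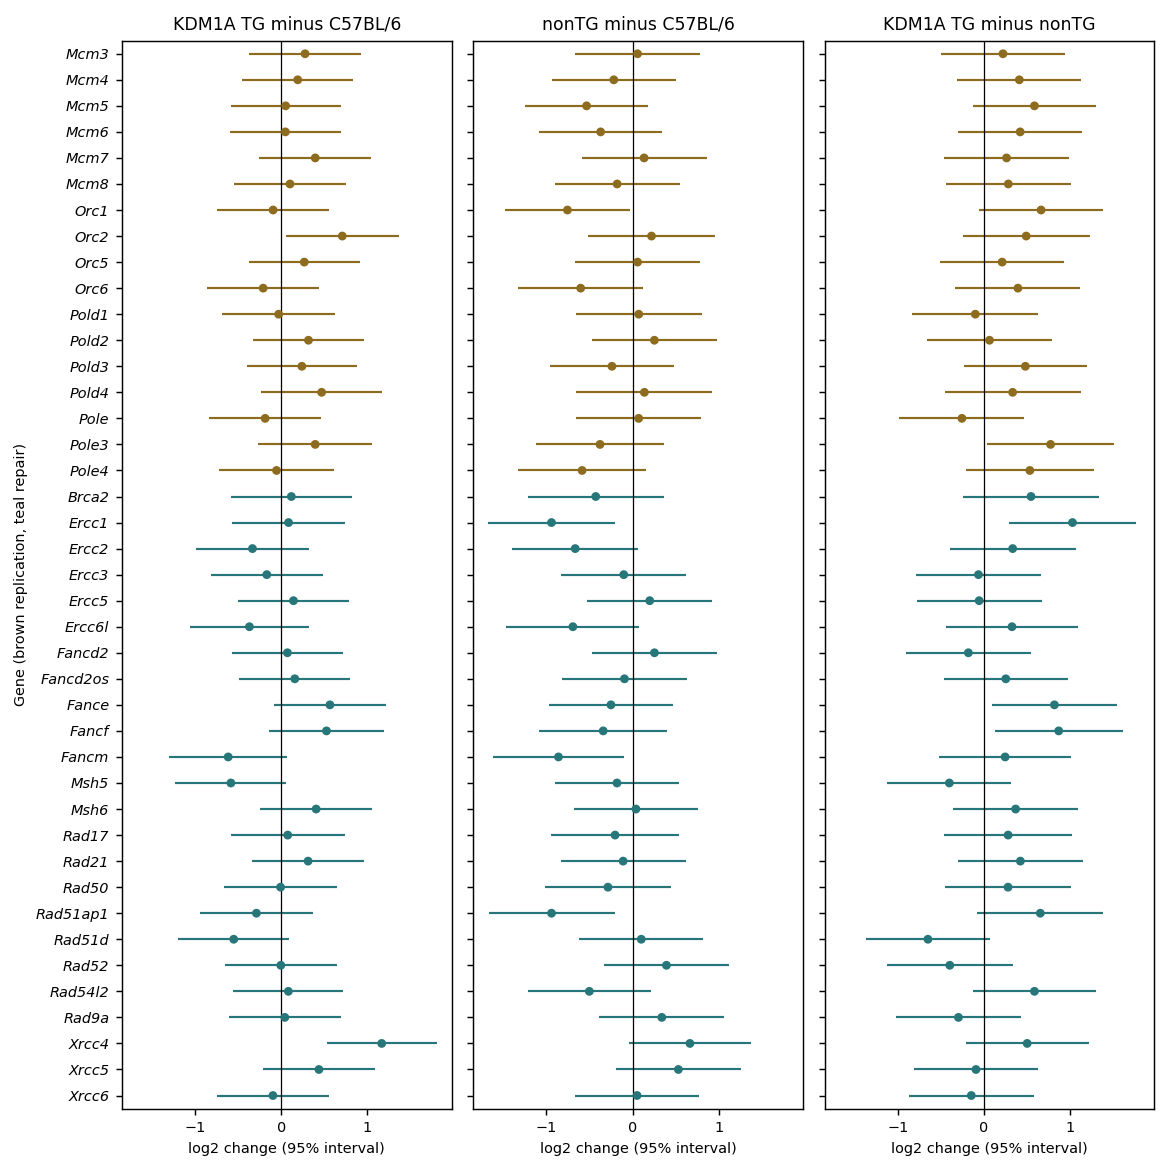
Points are the log2 difference of each of the 41 tested members in the 3 comparisons and bars are 95% intervals from limma, with replication genes in brown and repair genes in teal. Most intervals cross 0, and the farthest point from 0 is Xrcc4 in KDM1A TG minus C57BL/6, at 1.17.

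E2F is a family of transcription factors known to switch on genes of DNA synthesis, so promoters are shown for replication genes that carry E2F-type letters. In RefSeq windows of GRCm38.p6, from 250 bases before to 50 after a gene's start, TTGGCGC and TTCGCGC were searched on both strands, counting overlapping matches separately. A window was found for 35 of the 45 members. A match occurred in 7 of 16 replication genes (43.8%) and 4 of 19 repair genes (21.1%). It occurred in 7.09% of the 8855 genes tested that had a window and in 4.47% of all 27025 genes with one. The replication genes were Mcm3, Mcm5, Mcm6, Mcm7, Mcm8, Orc1 and Pole2, and the repair genes Ercc1, Ercc2, Fancf and Fancm. CCAAT occurred in 65.7% of members against 42.0% of genes tested, and TTTGAA or TTCGAA, known as the CHR element, in 11.4% against 17.0%. Shown are the windows of the 4 replication genes with a match and the smallest p, and, chosen after its values were seen, that of Xrcc4, which held 0 matches. Capitals mark the E2F-type letters on either strand.
Orc1 (chr4:108579204-108579503, plus strand): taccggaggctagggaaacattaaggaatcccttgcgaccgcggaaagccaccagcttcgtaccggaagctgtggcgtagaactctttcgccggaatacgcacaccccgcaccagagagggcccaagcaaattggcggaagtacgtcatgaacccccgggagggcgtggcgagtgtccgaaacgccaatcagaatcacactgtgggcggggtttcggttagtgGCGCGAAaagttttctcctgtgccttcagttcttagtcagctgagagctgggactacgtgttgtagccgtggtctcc
Mcm5 (chr8:75109259-75109558, plus strand): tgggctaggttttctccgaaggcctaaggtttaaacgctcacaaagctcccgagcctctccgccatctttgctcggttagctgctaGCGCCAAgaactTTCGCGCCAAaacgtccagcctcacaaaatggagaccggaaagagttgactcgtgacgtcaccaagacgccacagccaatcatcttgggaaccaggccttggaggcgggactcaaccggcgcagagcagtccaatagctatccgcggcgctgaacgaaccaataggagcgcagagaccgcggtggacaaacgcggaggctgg
Mcm7 (chr5:138171834-138172133, minus strand): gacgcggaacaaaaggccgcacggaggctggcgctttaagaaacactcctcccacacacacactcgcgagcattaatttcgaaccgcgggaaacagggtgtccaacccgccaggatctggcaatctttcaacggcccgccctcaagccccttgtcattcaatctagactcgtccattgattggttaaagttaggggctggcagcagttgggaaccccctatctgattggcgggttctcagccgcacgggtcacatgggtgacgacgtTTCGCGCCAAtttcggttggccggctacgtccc
Mcm6 (chr1:128359656-128359955, minus strand): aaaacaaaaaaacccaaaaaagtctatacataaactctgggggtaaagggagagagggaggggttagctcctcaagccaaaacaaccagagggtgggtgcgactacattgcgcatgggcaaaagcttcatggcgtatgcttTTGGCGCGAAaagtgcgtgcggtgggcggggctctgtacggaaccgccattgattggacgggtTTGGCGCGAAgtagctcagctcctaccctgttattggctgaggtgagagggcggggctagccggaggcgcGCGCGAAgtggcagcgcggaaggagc
Xrcc4 (chr13:90089559-90089858, minus strand): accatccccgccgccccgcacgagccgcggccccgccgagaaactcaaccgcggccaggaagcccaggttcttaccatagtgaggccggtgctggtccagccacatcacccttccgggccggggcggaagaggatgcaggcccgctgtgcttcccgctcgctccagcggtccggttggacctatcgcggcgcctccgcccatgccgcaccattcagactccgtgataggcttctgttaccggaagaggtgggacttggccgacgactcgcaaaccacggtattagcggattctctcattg
In Orc1 the match lay 27 bases before the start, and in Mcm7 a pair of overlapping matches lay 17 and 20 bases after it. Mcm6 held 5 matches and Mcm5 held 3. The 10 tested members with a match had median log2 differences of 0.07 in KDM1A TG and -0.45 in nonTG arrays relative to C57BL/6, with 0.38 between KDM1A TG and nonTG. The 21 tested members with a window and no match had medians of 0.16, 0.04 and 0.33. Over all genes tested the medians were 0.18, 0.04 and 0.16. The differences of all 628 tested genes with a match were not summarised, so these medians show no tie between match and level. A match is a string of letters and says nothing of binding.

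Among the MCM helicase genes, Mcm6 had the closest KDM1A TG values. It read 5.07, 4.70 and 5.20 in C57BL/6, 5.06, 5.00 and 5.05 in KDM1A TG and 4.36 and 4.87 in nonTG arrays. The nonTG values lay under all KDM1A TG values and overlapped C57BL/6, and KDM1A TG minus nonTG was 0.42 (95% interval -0.30 to 1.14). Mcm5 read 3.09, 3.03 and 3.41 in C57BL/6, 3.12, 3.43 and 3.14 in KDM1A TG and 2.84 and 2.45 in nonTG arrays. Both nonTG arrays lay under the other 6, and nonTG minus C57BL/6 was -0.53 (-1.25 to 0.18). The share of all genes with both nonTG arrays lowest was not counted, here or for the genes below. Mcm4 read 3.01, 3.17 and 2.96, then 2.84, 3.24 and 3.63, then 2.78 and 2.88 in the same order of groups. Its nonTG arrays lay under the C57BL/6 arrays, with KDM1A TG replicate 1 between the nonTG values.

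In C57BL/6, KDM1A TG and nonTG arrays, Mcm3 was at 3.02 ± 0.33, 3.30 ± 0.05 and 3.08 ± 0.45 (SD, n = 3, 3 and 2), and Mcm7 was at 3.45 ± 0.33, 3.85 ± 0.36 and 3.59 ± 0.30. Mcm8, a relative of the helicase subunits that works in recombination, was at 2.42 ± 0.36, 2.52 ± 0.36 and 2.24 ± 0.26. For KDM1A TG against C57BL/6 all 6 Mcm genes had differences above 0, from 0.05 to 0.40 around the all-gene median, and 5 of 6 after quantile normalization or cyclic loess. The intervals of the 6 included 0 in all 3 comparisons.

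The origin recognition genes differed from each other. Orc2 read 4.46, 3.75 and 4.97 in C57BL/6, 4.89, 5.40 and 5.03 in KDM1A TG and 4.41 and 4.81 in nonTG arrays. KDM1A TG values were high, C57BL/6 replicate 3 lay among them, and the log2 difference was 0.71 (SE 0.33, limma adjusted p = 0.321). Without C57BL/6 replicate 2, the lowest array, it was 0.39, and with the oviduct covariate 1.34. Orc1, the largest subunit of the complex, read 3.63, 2.82 and 3.57 in C57BL/6, 3.20, 3.20 and 3.34 in KDM1A TG and 2.39 and 2.78 in nonTG arrays. Both nonTG arrays were the lowest of the 8, at -0.76 from C57BL/6 (SE 0.36, limma adjusted p = 0.578). C57BL/6 replicate 2 lay only just above them. Orc6 read 7.14, 6.28 and 6.76, then 6.36, 6.84 and 6.36, then 5.96 and 6.29, with all KDM1A TG values above both nonTG values and C57BL/6 replicate 2 between the nonTG values. Orc5 was at 3.94 ± 0.31, 4.21 ± 0.30 and 4.0 ± 0.32.

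Genes of polymerase delta ranged from close to scattered values. Pold1, the catalytic subunit, read 2.79, 2.89 and 3.0 in C57BL/6, 2.27, 3.47 and 2.86 in KDM1A TG and 2.97 and 2.96 in nonTG arrays, so all other arrays lay within the KDM1A TG range. Pold4, its smallest subunit, read 2.96, 3.66 and 2.90, then 4.43, 2.66 and 3.83, then 3.98 and 2.63. It had the largest residual SD of the 41 members, 0.76, and was highest in KDM1A TG replicates 1 and 3 and nonTG replicate 1, the 3 arrays with the highest oviduct marker means. KDM1A TG minus C57BL/6 was 0.47 for Pold4, and it ran from -0.59 to 0.96 over the 21 alternatives. Pold2 was at 3.63 ± 0.39, 3.95 ± 0.29 and 3.89 ± 0.03 (SD), and Pold3, which ties the enzyme to its sliding clamp, at 4.70 ± 0.33, 4.95 ± 0.16 and 4.47 ± 0.06.

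Pole, the catalytic subunit of polymerase epsilon, was at 2.38 ± 0.35, 2.20 ± 0.37 and 2.45 ± 0.25 (SD), and Pole2, which was not tested, at 2.24 ± 0.37, 1.75 ± 0.31 and 1.93 ± 0.11. Pole3 and Pole4 are small histone-fold subunits of the same enzyme. Pole3 read 5.47, 5.45 and 4.63, then 6.05, 5.04 and 5.64, then 4.58 and 5.03. KDM1A TG lay just above nonTG, by 0.77 in mean (SE 0.37, limma adjusted p = 0.775), and by 0.24 with KDM1A TG replicate 2 alone. Pole4 read 6.22, 5.50 and 6.25, then 5.71, 6.34 and 5.76, then 4.88 and 5.93, lowest in nonTG replicate 1 and C57BL/6 replicate 2.

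Among end-joining genes, Xrcc4 separated the 3 sire groups without overlap. Xrcc4 is the scaffold of the DNA ligase that seals double-strand breaks. It read 2.51, 2.94 and 2.8 in C57BL/6, 3.90, 4.03 and 3.82 in KDM1A TG and 3.39 and 3.45 in nonTG arrays. All KDM1A TG values lay above both nonTG values, and these above all C57BL/6 values. The share of all genes with this order was not counted. KDM1A TG minus C57BL/6 was 1.17 (95% interval 0.53 to 1.80, SE 0.32, limma adjusted p = 0.0543), which misses the threshold. nonTG minus C57BL/6 was 0.67 (-0.05 to 1.38), and KDM1A TG minus nonTG was 0.50 (-0.21 to 1.21). Its residual SD of 0.15 was the smallest of the 41 members.

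The call on Xrcc4 moved with the processing. In limma it passed with no filter (adjusted p = 0.0440), after median centring (adjusted p = 0.0294), with a robust variance trend (adjusted p = 0.0377), with array weights (adjusted p = 0.00153) and without C57BL/6 replicate 2 (adjusted p = 0.0384). Quantile normalization (adjusted p = 0.251) and cyclic loess scaling (adjusted p = 0.264) both left it above the threshold. Leaving out any other C57BL/6 or KDM1A TG array did too, with limma adjusted p of 0.323 and 0.140 without C57BL/6 replicates 1 and 3, and 0.218, 0.0613 and 0.361 without KDM1A TG replicates 1, 2 and 3. With mean oviduct marker level added as a covariate, the log2 difference was 1.22 (limma adjusted p = 0.289). The difference lay between 1.05 and 1.28 over the 21 alternatives.

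Xrcc5 and Xrcc6 encode the Ku proteins that hold broken ends. Xrcc5 read 3.46, 3.30 and 3.07, then 3.64, 3.33 and 4.18, then 3.87 and 3.74. Both nonTG arrays lay above the C57BL/6 arrays (0.53, -0.19 to 1.25), while KDM1A TG overlapped both groups. Xrcc6 was at 2.60 ± 0.36, 2.51 ± 0.25 and 2.66 ± 0.40 (SD).

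**Figure D4:**
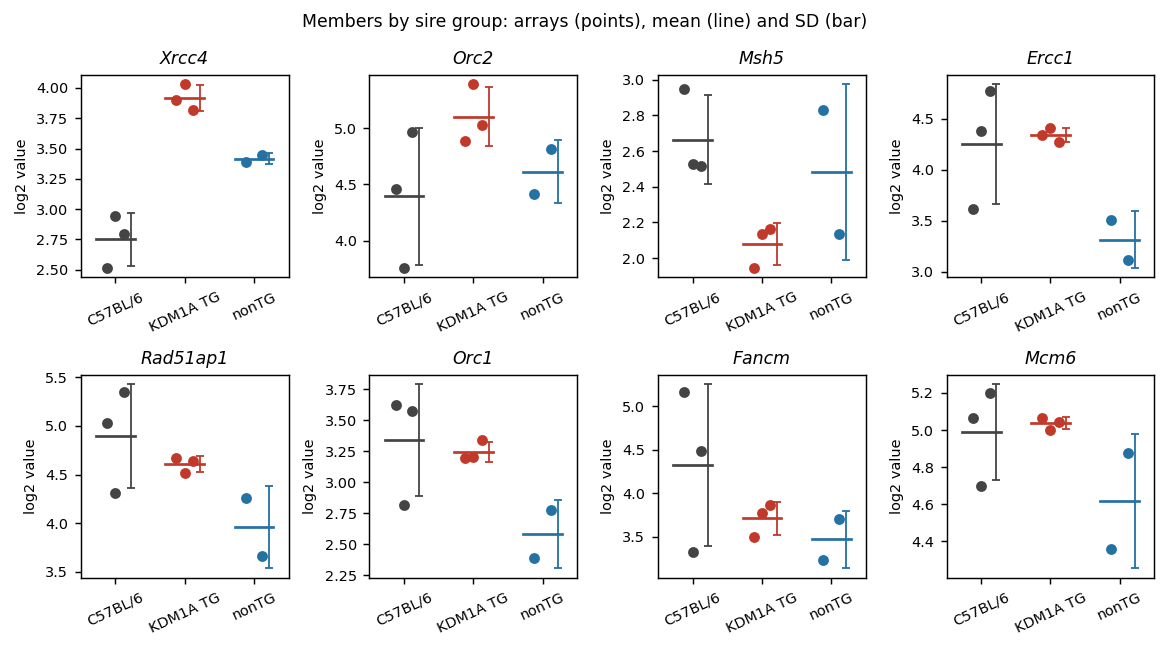
Log2 values of 8 members by sire group, with a point per array, a line at the group mean and a bar for its SD (3, 3 and 2 arrays), on a separate vertical scale per gene. The 3 groups are separate from one another for Xrcc4, and in Ercc1, Rad51ap1 and Orc1 both nonTG points lie under all others. The share of all genes with either pattern was not counted.

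Ercc1, part of the nuclease that cuts the damaged strand in nucleotide excision repair, had the largest difference of the 41 members between KDM1A TG and nonTG embryos. It read 3.62, 4.39 and 4.77 in C57BL/6, 4.34, 4.42 and 4.27 in KDM1A TG and 3.51 and 3.12 in nonTG arrays. Both nonTG values were the lowest of the 8, with C57BL/6 replicate 1 close above them. KDM1A TG stood 2.04-fold above nonTG (log2 difference 1.03, SE 0.37, limma adjusted p = 0.591), and nonTG minus C57BL/6 was -0.94 (SE 0.37, limma adjusted p = 0.407). Ercc2, a helicase of the same pathway, read 3.81, 3.48 and 3.68, then 3.62, 2.89 and 3.46, then 3.44 and 2.55, with nonTG under C57BL/6 by a narrow gap.

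Ercc3, its partner helicase, was at 4.55 ± 0.24, 4.39 ± 0.46 and 4.45 ± 0.14 (SD), and Ercc5, another nuclease, at 2.81 ± 0.48, 2.95 ± 0.17 and 3.01 ± 0.27. Ercc6l shares the prefix but encodes a helicase of mitotic chromosomes. It read 3.90, 2.15 and 3.68, then 3.04, 3.1 and 2.48, then 2.30 and 2.8, and C57BL/6 replicates spanned the range of all 8 arrays.

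Among recombination genes, Brca2, which is needed to repair broken DNA by recombination, read 5.86, 4.58 and 6.21 in C57BL/6, 5.34, 6.01 and 5.66 in KDM1A TG and 4.40 and 5.85 in nonTG arrays. C57BL/6 replicate 2 and nonTG replicate 1 stood well under every other array, so no group was set apart in these values. KDM1A TG minus C57BL/6 was 0.12 for Brca2, and it ran from -0.37 to 1.07 over the 21 alternatives. Rad51ap1, an accessory factor of recombination, read 5.03, 4.31 and 5.35, then 4.67, 4.51 and 4.64, then 4.25 and 3.66. The nonTG arrays were the lowest of the 8, at -0.94 from C57BL/6 (SE 0.37, limma adjusted p = 0.407), though C57BL/6 replicate 2 lay only just above them. Rad51d, which also acts in recombination, read 4.32, 3.70 and 4.10, then 3.56, 3.24 and 3.67, then 3.86 and 4.43. Here the KDM1A TG arrays lay under all others, at -0.55 from C57BL/6 (-1.20 to 0.10) and -0.65 from nonTG (-1.37 to 0.07).

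Rad50, part of a complex that senses breaks, read 4.94, 4.43 and 5.32, then 4.95, 4.62 and 5.10, then 4.22 and 5.00, and KDM1A TG minus C57BL/6 was -0.01 (-0.66 to 0.65). Rad52 was at 3.06 ± 0.37, 3.05 ± 0.41 and 3.45 ± 0.31 (SD). Rad54l2, known as a chromatin remodeller, read 3.22, 3.36 and 3.55, then 3.30, 3.47 and 3.62, then 2.69 and 3.06, and the nonTG arrays were the lowest.

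Fanconi anemia genes differed in direction. Fancm, a motor protein that acts at stalled forks, read 5.17, 3.33 and 4.49 in C57BL/6, 3.50, 3.78 and 3.87 in KDM1A TG and 3.23 and 3.70 in nonTG arrays. C57BL/6 replicates 1 and 3 were the highest and C57BL/6 replicate 2 was among the lowest. nonTG minus C57BL/6 was -0.86 (SE 0.38, limma adjusted p = 0.528) with all 8 arrays and -1.36 without C57BL/6 replicate 2. It was -0.44 without C57BL/6 replicate 1 and -0.51 with the oviduct covariate. Fance, of the core complex, read 2.52, 2.86 and 3.29, then 3.54, 3.69 and 3.13, then 2.57 and 2.71, with KDM1A TG over nonTG without overlap by 0.82 (SE 0.36, limma adjusted p = 0.772). Fancf, of the same complex, read 2.32, 2.64 and 3.07, then 3.52, 3.47 and 2.61, then 2.76 and 1.90, and KDM1A TG replicate 3 lay among the other groups (0.87, SE 0.37, limma adjusted p = 0.770). Its difference was 0.44 without nonTG replicate 2. Fancd2, which this complex tags with ubiquitin, was at 2.42 ± 0.20, 2.49 ± 0.27 and 2.67 ± 0.47 (SD). Fancd2os, its opposite-strand neighbour, was at 2.88 ± 0.24, 3.04 ± 0.33 and 2.78 ± 0.35 and is a member through its symbol alone.

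Of the mismatch repair genes, Msh6, which recognises mispaired bases, was at 3.79 ± 0.33, 4.19 ± 0.26 and 3.82 ± 0.38 (SD). Msh5, which acts in meiotic crossing over, read 2.95, 2.53 and 2.51, then 1.95, 2.13 and 2.16, then 2.83 and 2.13. KDM1A TG lay under C57BL/6 without overlap, at -0.58 (-1.23 to 0.06), with values near the filter level. Rad17, which loads the checkpoint clamp, read 5.32, 4.22 and 5.57, then 5.17, 5.13 and 5.04, then 4.67 and 5.00, its KDM1A TG values close together and above both nonTG values. Rad9a, a clamp subunit, was at 4.08 ± 0.38, 4.13 ± 0.31 and 4.42 ± 0.14. Rad21, the cohesin subunit that holds sister chromatids together, read 6.06, 5.88 and 6.71, then 6.28, 6.63 and 6.68, then 6.35 and 5.86, and its groups overlapped.

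Other genes of the same processes were read from 2 lists chosen by role. Of 45 replication partners, such as clamp loaders, primase and licensing factors, 32 were found and tested, and of 61 repair partners 39 of 40 found were tested. None passed limma's test in any comparison. For KDM1A TG against C57BL/6, 3 replication partners and 6 repair partners stood higher at an unadjusted p under 0.05 and 0 lower, which is 9.38% and 15.4% against 12.1% of all genes. Rfc2, a subunit of the clamp loader, read 3.29, 4.12 and 3.29, then 4.86, 4.36 and 4.78, then 4.13 and 4.53. Every KDM1A TG and nonTG array lay above the C57BL/6 arrays, and the KDM1A TG difference was 1.10 (SE 0.33, limma adjusted p = 0.0904). Rpa1, which coats single-stranded DNA, read 2.77, 3.03 and 2.59, then 3.69, 3.49 and 3.83, then 3.45 and 3.48. The groups lay in the order seen for Xrcc4, with KDM1A TG only just above nonTG. Its KDM1A TG difference from C57BL/6 was 0.87 (SE 0.32, limma adjusted p = 0.198). Fen1, which trims the ends of lagging-strand fragments, read 3.13, 3.22 and 3.22, then 2.32, 2.83 and 2.62, then 2.63 and 2.70, with C57BL/6 above both other groups.

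For nonTG against C57BL/6, 25 of 32 replication partners and 17 of 39 repair partners had differences below 0, against 5352 of all 11444 genes. Their medians were -0.14 and 0.04 against 0.04 over all genes. Arrays did not overlap on the lower side for 18.8% and 10.3% of them, against 9.41% of all genes. On the higher side the shares were 9.38% and 12.8%, against 15.4%. Gmnn, which blocks relicensing of origins, read 7.14, 6.21 and 7.50, then 6.56, 7.47 and 6.46, then 5.74 and 6.41, lowest in nonTG replicate 1 and C57BL/6 replicate 2. Atr, the kinase that answers stalled forks, read 2.26, 2.74 and 2.29, then 3.29, 3.18 and 3.26, then 3.71 and 2.69, so that KDM1A TG lay above C57BL/6 while the nonTG arrays lay far apart. H2ax, the histone marked at breaks, read 4.81, 5.42 and 5.84, then 5.78, 6.35 and 5.99, then 4.61 and 5.54, and KDM1A TG minus nonTG was 0.96 (SE 0.37, limma adjusted p = 0.689). In that comparison 24 of 32 replication partners and 27 of 39 repair partners had differences above 0, against 65.4% of all genes. Their medians were 0.31 and 0.18, against 0.16. Arrays did not overlap on the higher side for 31.25% and 23.1%, against 16.0%, and on the lower side for 3.13% and 0%, against 6.38%.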

How the data were processed

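Values are the deposited log2 expression summaries per probeset, 1 column per array. Tools named in the submitters' processing notes are oligo, RMA, limma and R 3.1.0, with no role for each, and the sources used here do not state background correction or filters. Array columns do not share 1 distribution, so the deposited scale was kept and other scalings served as alternatives. Gene names came from the platform annotation. Of 22961 probesets, 15745 carried 1 symbol, 1320 several and 5896 none here, and each gene was read from its brightest probeset. All 45 members were found by gene identifier in the RefSeq gene table (GRCm38.p6). The 11444 genes with a mean above the filter level were fitted in limma 3.58.1 (lmFit, then eBayes; R version 4.3.3) over the 8 arrays, as group means with two-sided contrasts and Benjamini-Hochberg adjustment over all genes tested; the code was tested on simulated data. Levels of different probesets are not comparable, and the number of arrays limits precision. In the simulated data, 10.6%, 6.8% and 6.6% of 2-fold changes passed the adjusted threshold, and 84%, 75.4% and 76% of 4-fold changes. These are for KDM1A TG against C57BL/6, nonTG against C57BL/6 and KDM1A TG against nonTG. The members, lists and tests were chosen with earlier results of these data known. Genes named are the main family members, those with the smallest p on each side, the brightest and dimmest, and those whose arrays do not overlap. Alternatives covered the filter, scaling, variance model, array weights, arrays left out, probeset choice, replicate number as a block and the oviduct marker mean.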

Additional observations from a re-analysis of the deposited data

How the results depend on the processing

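The count of members that passed for KDM1A TG against C57BL/6, 0 as reported, was 1 with no filter, 1 after median centring, 1 with a robust variance trend (Xrcc4 each time), 3 with array weights (Xrcc4, Fancm and Pold4) and 0 to 1 leaving out each array, the 1 without C57BL/6 replicate 2. Of all genes, 138, 151, 128, 1694 and 254 passed under these 5 settings, against 83 as reported, so the members' calls came with more calls in general. At an unadjusted p under 0.05 the counts were 2, 4 and 4 in the 3 comparisons. For KDM1A TG against C57BL/6, the replication median relative to all genes (0.01) was -0.16 with array weights. With mean oviduct marker level added as a covariate it was 0.20 and the repair median 0.0904, and for nonTG against C57BL/6 they were -0.0104 and 0.0896. Without the 2 widest KDM1A TG arrays, KDM1A TG against nonTG gave 0.48 and 0.30. Leaving out each array, the replication median ranged -0.10 to 0.01, -0.32 to -0.0043 and 0.0634 to 0.34 in the 3 comparisons, and the repair median -0.18 to -0.04, -0.31 to -0.09 and -0.0818 to 0.20. The causes were not tested. The sign of the difference was the same in every alternative for 16, 20 and 27 of 41 members in KDM1A TG against C57BL/6, nonTG against C57BL/6 and KDM1A TG against nonTG. Same-numbered arrays did not deviate together (7 pairs, correlations -0.378 to 0.179), and with the replicate number as a block 0 members passed in each comparison and Xrcc4 had a limma adjusted p of 0.0870.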
